A study of Rattus norvegicus with 24 samples.

Results

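The genes described here encode the beta subunits of the sodium-potassium ATPase, the pump that moves sodium out of cells and potassium in. The 3 genes, Atp1b1, Atp1b2 and Atp1b3, were chosen by name from 4012 rat genes that could be named on the arrays, by a rule that used no measured value, although earlier results of these data were known. Each gene was represented by 1 probe of 33849 rat probes (GE20186 for Atp1b1, GE21654 for Atp1b2 and GE20053 for Atp1b3), and all 3 probes were among the 22025 bright enough to be tested.

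The pump is assembled from a catalytic alpha subunit and a glycosylated beta subunit, which is needed for folding of the alpha subunit and for its delivery to the cell membrane. Small FXYD proteins bind the complex and adjust its kinetics. In the retina the pump holds the sodium and potassium gradients on which the photoreceptor dark current, neuronal firing and the glial uptake of glutamate and potassium depend. Atp1b1 is the most widespread beta subunit. Atp1b2, also known as the adhesion molecule on glia, takes part in cell adhesion and in the retina forms a complex that anchors retinoschisin. Atp1b3 encodes the remaining beta subunit of the pump and is found in many tissues.

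Retinas of male Sprague Dawley rats were profiled on 1-colour CodeLink whole genome oligonucleotide arrays. Diabetes was induced with an intraperitoneal injection of streptozotocin (STZ), a toxin of pancreatic beta cells, in citrate buffer, and control rats were given the buffer alone. There were 4 groups with 6 arrays each, made 1 month after injection (1M Control and 1M STZ) and 3 months after injection (3M Control and 3M STZ). No insulin was given, rats entered the STZ groups only if hyperglycaemic, and animals of the 2 time points were generated and sacrificed separately, so that age, duration and handling of a set of arrays cannot be told apart when 1 month is set against 3 months. RNA came from whole retina, in which fewer cells of a type and less RNA per cell cannot be told apart.

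Levels are given as scaled intensity, the background-subtracted brightness of a probe divided by the median rat probe of its array, so that a value of 1 is the array median. Since probes differ in how strongly they bind, the level of one gene was not set against that of another. A gene was called when limma gave a Benjamini-Hochberg adjusted p under 0.05 over all tested probes and a change of at least 1.2-fold. The arrays of the 2 time points differed in more than these genes. The interquartile range of log2 intensity was 3.36 to 3.67 on the 1M Control arrays and 3.40 to 3.66 on the 1M STZ arrays, but 1.48 to 2.23 on the 3M Control arrays and 2.07 to 2.70 on the 3M STZ arrays. After scaling, the median tested probe was 0.44 higher on the log2 scale in 3M STZ than in 3M Control, against 0.01 at 1 month. The 3M Control 2 array stood apart, correlating with the rest of its group at a median of 0.802, where the median over all pairs within groups was 0.967.

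All 3 genes were called higher at 3 months after median scaling, as were 50.5% of tested probes, and only Atp1b2 was called after quantile normalization. The sequences before their start sites are shown to describe the genes where RefSeq (GRCr8) listed a promoter, which it did for Atp1b2 (chr10:54823709-54823958, minus strand) and Atp1b3 (chr8:105821152-105821401, minus strand). The 250 bases upstream of each start are written 5′ to 3′, with capitals marking TATA boxes (TATAAA), GC boxes (GGGCGG) and CCAAT boxes (CCAAT), each searched on both strands.
Atp1b2: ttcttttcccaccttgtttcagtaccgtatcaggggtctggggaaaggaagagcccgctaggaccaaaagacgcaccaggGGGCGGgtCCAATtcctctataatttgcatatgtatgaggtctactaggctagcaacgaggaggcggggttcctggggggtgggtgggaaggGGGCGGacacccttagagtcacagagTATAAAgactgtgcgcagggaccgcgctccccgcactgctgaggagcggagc
Atp1b3: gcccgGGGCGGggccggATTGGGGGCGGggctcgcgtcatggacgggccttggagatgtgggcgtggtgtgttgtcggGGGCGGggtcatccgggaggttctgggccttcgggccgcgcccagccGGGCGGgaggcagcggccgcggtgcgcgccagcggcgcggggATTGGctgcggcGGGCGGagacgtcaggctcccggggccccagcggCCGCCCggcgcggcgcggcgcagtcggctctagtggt
The Atp1b2 window held 1 TATA box, whose first base lay 52 bases upstream of the start, with 2 GC boxes and 1 CCAAT box. The Atp1b3 window held no TATA box, 6 GC boxes and 2 CCAAT boxes. Its GC content was 79.6%, against 58.0% for Atp1b2 and a median of 51.2% over all 33469 RefSeq promoter windows of this length. Of these windows, 12.9% held a TATA box, 30.5% a GC box and 34.0% a CCAAT box.

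At 1 month no beta subunit gene differed between STZ and control retinas by the test, and the arrays of both groups overlapped for each gene. Atp1b1 lay between 34.4 and 48.8 scaled units in 1M Control (median 45.9) and between 39.5 and 56.1 in 1M STZ (median 45.8). The 1M Control 5 array was the low one, and 2 of 6 STZ arrays exceeded every control. Atp1b2, the glial adhesion subunit, lay between 2.48 and 5.63 in 1M Control (median 3.58) and between 2.86 and 3.87 in 1M STZ (median 3.41). Every STZ value of Atp1b2 fell inside the range of the controls. Atp1b3 lay between 13.7 and 17.7 in 1M Control (median 15.7) and between 7.94 and 16.8 in 1M STZ (median 14.1). Only 2 STZ arrays, 1M STZ 1 at 9.54 and 1M STZ 4 at 7.94, were below every control for Atp1b3, and the other 4 overlapped the controls.

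By limma the 1 month log2 difference between STZ and control was 0.10 (SE 0.22) for Atp1b1, -0.05 (SE 0.21) for Atp1b2 and -0.33 (SE 0.22) for Atp1b3. The adjusted p was 1.00 for each, and the unadjusted p was 0.642, 0.807 and 0.146. None of the 3 genes was called, where 0.00908% of all tested probes were called at this time. For Atp1b3 the 95% confidence interval ran from -0.78 to 0.12, which includes 0.

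At 3 months all 3 beta subunit genes were higher in STZ than in control retinas on the scaled intensities. Atp1b1 lay between 9.65 and 40.4 scaled units in 3M Control (median 27.4) and between 28.1 and 39.4 in 3M STZ (median 36.7). Its groups overlapped, since the highest array of all was a control, while all 6 STZ arrays were above the control median. Atp1b2 lay between 0.935 and 2.58 in 3M Control (median 1.65) and between 2.05 and 4.20 in 3M STZ (median 3.18). For Atp1b2, 4 of 6 STZ arrays exceeded every control. Atp1b3 lay between 3.83 and 11.4 in 3M Control (median 9.20) and between 9.09 and 16.1 in 3M STZ (median 14.4). Here too 4 of 6 STZ arrays exceeded every control. No beta subunit gene had all STZ arrays above all controls, as 9.49% of tested probes did. The 3M Control 2 array was the lowest of the 24 for each of the 3 genes, as shown in the plot of levels by array.

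**Figure D1:**
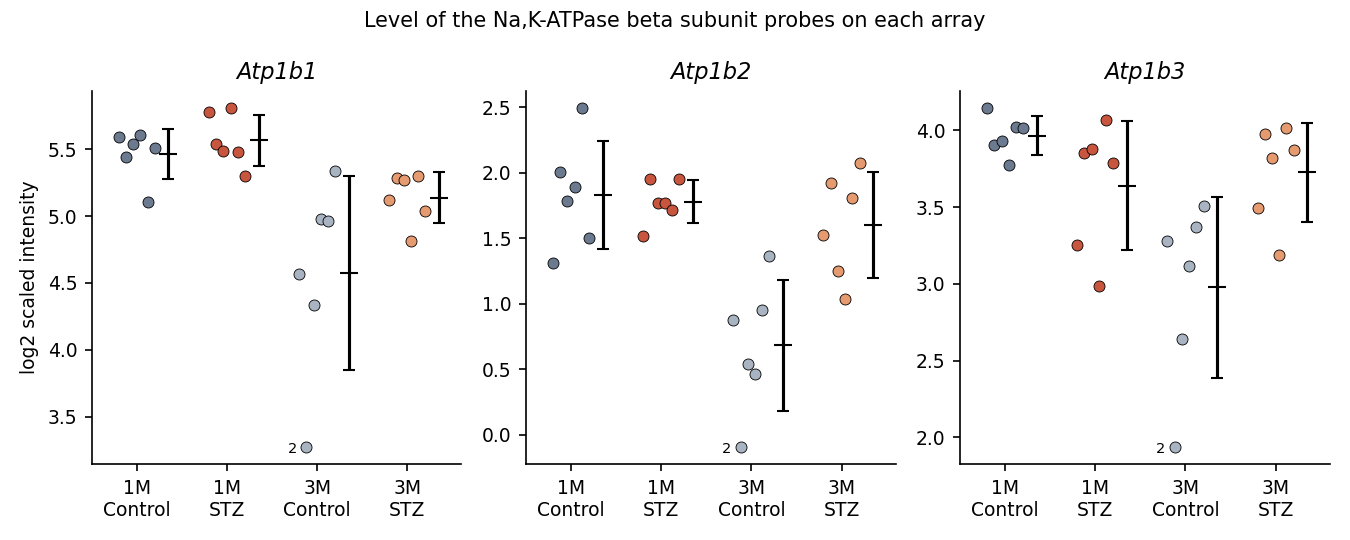
The log2 scaled intensity of the Atp1b1, Atp1b2 and Atp1b3 probes (vertical axis, a separate scale in each panel) on each of the 24 arrays (points) in 4 groups of 6, with the group mean and SD as a black bar. The number 2 marks the 3M Control 2 array, which lies lowest in all 3 panels, and the STZ mean lies above the control mean at 3 months in each panel.

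On the log2 scale Atp1b1 rose from 4.57 ± 0.73 (SD, n = 6) in 3M Control to 5.14 ± 0.19 in 3M STZ, a difference of 0.56 (SE 0.22) or 1.48-fold, with a limma adjusted p of 0.0319. Atp1b2 rose from 0.68 ± 0.50 to 1.60 ± 0.40, a difference of 0.92 (SE 0.21) or 1.89-fold, with a limma adjusted p of 0.00171. Atp1b3 rose from 2.98 ± 0.59 to 3.73 ± 0.32, a difference of 0.75 (SE 0.22) or 1.68-fold, with a limma adjusted p of 0.00717. All 3 genes were thus called higher, but so were 50.5% of all tested probes. By the study's own kind of test, with unequal variances, an unadjusted p under 0.01 and 1.2-fold, Atp1b2 alone of the 3 passed, beside 15.8% of tested probes higher in STZ.

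Set against the median tested probe, the difference was 0.12 for Atp1b1, 0.47 for Atp1b2 and 0.31 for Atp1b3 on the log2 scale. A larger difference was seen at 36.0% of tested probes than for Atp1b1, at 16.1% than for Atp1b3 and at 6.59% than for Atp1b2. Without the 3M Control 2 array, Atp1b1 was no longer called (0.30, limma adjusted p = 0.112), whereas Atp1b2 (0.76, adjusted p = 0.00524) and Atp1b3 (0.54, adjusted p = 0.0236) were, beside 37.6% of all tested probes.

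The rise depended on how the arrays were made comparable. After quantile normalization, which gives every array the same distribution of intensities, only Atp1b2 was called (0.64, limma adjusted p = 0.0328), beside 24.6% of tested probes called higher. Atp1b3 was at 0.17 (adjusted p = 0.493), and Atp1b1 changed sign, to -0.20 (adjusted p = 0.325). With no scaling between arrays the log2 differences were -0.05 for Atp1b1, 0.30 for Atp1b2 and 0.13 for Atp1b3, none was called, and the median tested probe was at -0.17. With the interquartile range of the arrays as a covariate the differences were -0.04, 0.39 and 0.20, and no probe of the array was called by limma, although 1934 had an unadjusted p under 0.05. The 3 month groups differed in this range (1.48 to 2.23 in control, 2.07 to 2.70 in STZ), so this fit cannot separate STZ from spread. The SE for Atp1b2 was 0.33 with the covariate and 0.21 without it. Of the calls at 3 months, 93.4% were higher in STZ after median scaling, 78.1% after quantile normalization and 7.84% with no scaling.

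**Figure D2:**
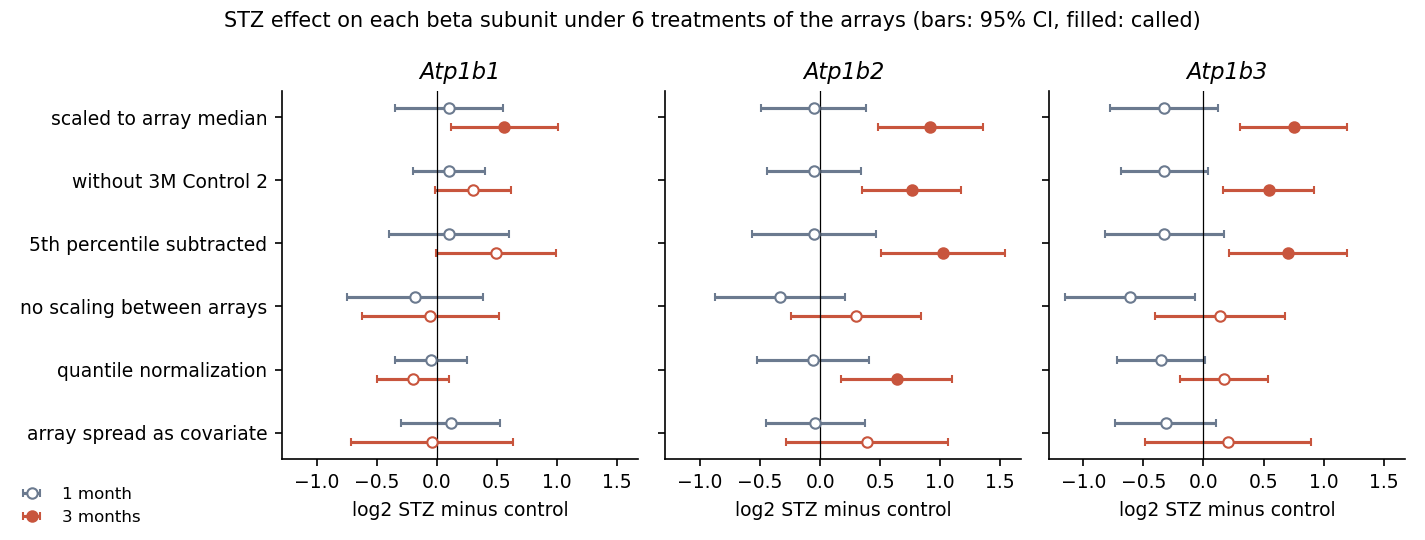
The log2 difference between STZ and control (horizontal axis, with its 95% confidence interval) for each beta subunit gene at 1 month (grey) and 3 months (red) under 6 treatments of the arrays, with filled points for differences called by limma. Atp1b2 stays above 0 at 3 months under all 6 and is called under 4, while Atp1b1 is called under 1 and lies below 0 under the lower 3.

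The percentile of a probe among the rat probes of its own array does not move with the scaling or brightness of that array. Atp1b2 stood at the 77.2 ± 6.16 percentile (SD, n = 6) in 1M Control and 76.7 ± 2.74 in 1M STZ, then at 65.9 ± 10.1 in 3M Control and 76.0 ± 4.12 in 3M STZ. The 3 month difference for Atp1b2 was 10.1 percentage points (two-sided exact permutation test, p = 0.0216, higher than the control median in 6 of 6 STZ arrays). Its exact p was 0.0584, 0.0541 and 0.0584 without 3M STZ 2, 5 and 6. In limma on the percentiles of all tested probes 24.1% were called higher. The other 2 genes lay too near the top of the scale to rise by as many points. Atp1b1 was among the brightest probes in every group, with mean percentiles of 99.6, 99.6, 99.5 and 99.3, and its 3 month difference was -0.16 points (exact p = 0.305). Atp1b3 had mean percentiles of 96.8, 94.6, 94.8 and 95.8, with a difference of -2.13 points at 1 month (exact p = 0.121) and 1.01 points at 3 months (exact p = 0.310). These were 6 tests with no adjustment, and the smallest p that 6 arrays against 6 allow is 0.00216.

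**Figure D3:**
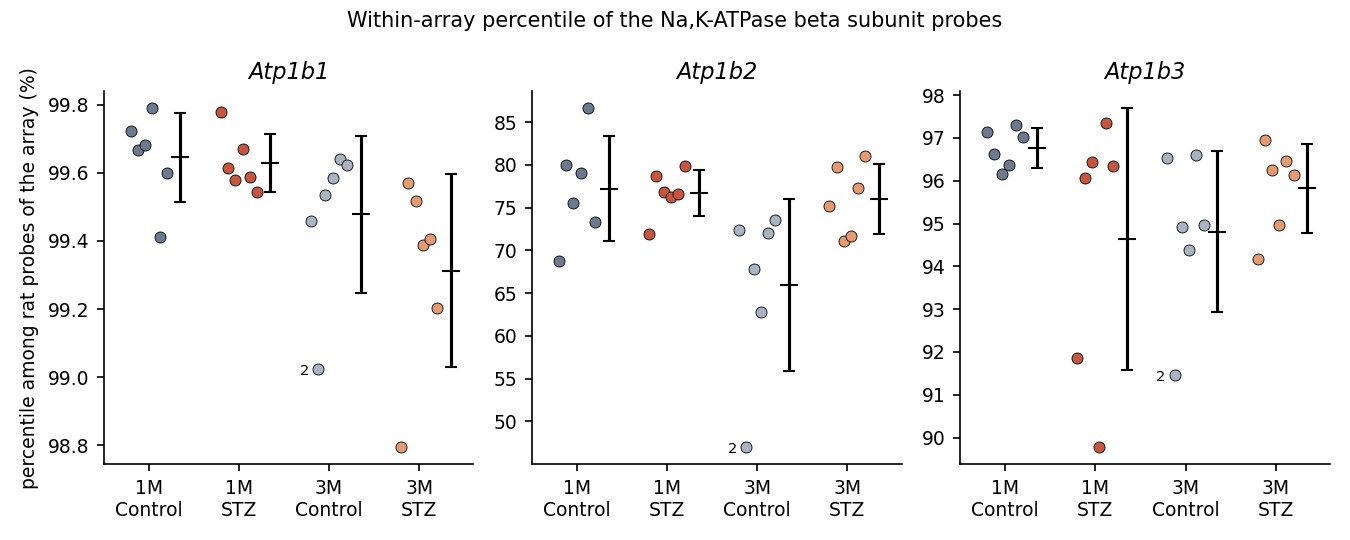
The percentile of each beta subunit probe among the rat probes of its own array (vertical axis in %, a separate scale in each panel) on each of the 24 arrays, with group means and SDs as black bars and the 3M Control 2 array marked 2. The Atp1b2 mean was 65.9 in 3M Control and 76.0 in 3M STZ, while Atp1b1 and Atp1b3 lie near the top of the percentile scale, where a rise of that size has no room.

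The order of the 4 groups was read from the mean log2 level of each gene. For Atp1b1 it ran from 1M STZ (5.57) to 1M Control (5.47), 3M STZ (5.14) and 3M Control (4.57). For Atp1b2 it ran from 1M Control (1.83) to 1M STZ (1.78), 3M STZ (1.60) and 3M Control (0.68). For Atp1b3 it ran from 1M Control (3.97) to 3M STZ (3.73), 1M STZ (3.64) and 3M Control (2.98). The 3M Control group was lowest for each gene on this scale, and every pair of neighbours in these orders had overlapping arrays. The arrays of the time points differed in spread, and by mean percentile within the array the order was not the same. There 3M Control was lowest only for Atp1b2 (65.9), while 3M STZ was lowest for Atp1b1 (99.3) and 1M STZ for Atp1b3 (94.6).

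The effect of STZ differed between the time points for Atp1b2 and Atp1b3. The 3 month effect exceeded the 1 month effect by 0.97 (SE 0.30, limma adjusted p = 0.0369) for Atp1b2 and by 1.08 (SE 0.31, adjusted p = 0.0302) for Atp1b3, where 14.8% of all tested probes were called more positive at 3 months. For Atp1b1 the excess was 0.46 (SE 0.31, adjusted p = 0.244). The median tested probe had an excess of 0.44. Under quantile normalization neither Atp1b2 (0.69, adjusted p = 0.161) nor Atp1b3 (0.53, adjusted p = 0.182) was called, where 9.66% of tested probes were. Without the 3M Control 2 array the Atp1b2 excess was 0.81 (adjusted p = 0.0557), not called, and that of Atp1b3 was 0.87 (adjusted p = 0.0361), beside 9.67% of tested probes called more positive.

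Whether the beta subunits changed by different amounts was examined with the ratio of 2 probes on the same array. The ratio cancels a scaling factor but not a difference in spread, and it was chosen after seeing the data. At 3 months the log2 ratio of Atp1b2 to Atp1b1 was 0.35 higher in STZ than in control (two-sided exact permutation p = 0.134). The ratio of Atp1b3 to Atp1b1 was 0.19 higher (exact p = 0.162), and that of Atp1b3 to Atp1b2 fell by 0.17 (exact p = 0.281). At 1 month the corresponding differences were -0.16, -0.43 and -0.27 (exact p = 0.617, 0.162 and 0.303). The 6 ratio tests did not separate the genes on scaled intensities. After quantile normalization the 3 month values were 0.83 (exact p = 0.00433), 0.37 (exact p = 0.0130) and -0.46 (exact p = 0.0281). The change of Atp1b2 was thus above that of Atp1b3, and that of Atp1b3 above that of Atp1b1. This order ran from the dimmest of the 3 probes to the brightest, at mean log2 levels of 1.60 and 5.14 in 3M STZ. Whether it came from the difference in spread between the arrays was not tested.

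Across the 24 arrays the log2 scaled intensities of the beta subunit probes had Pearson r of 0.74 for Atp1b1 and Atp1b2, 0.74 for Atp1b1 and Atp1b3 and 0.80 for Atp1b2 and Atp1b3. These correlations hold the group differences and the shared spread of the arrays, and on within-array percentiles they were 0.25, 0.19 and 0.49. Within groups of 6 arrays the signs differed between the time points, except for Atp1b2 and Atp1b3 in the STZ groups, where r was positive at each. In 1M Control the 3 pairs, in the same order, had r of -0.83, -0.19 and -0.36, and in 1M STZ -0.64, -0.83 and 0.41. In 3M Control, which holds the low 3M Control 2 array, they had r of 0.87, 0.95 and 0.92, and in 3M STZ 0.44, 0.84 and 0.76. The most similar patterns over 3140 probes with a gene name were those of Pfn2 (r = 0.98), Scg5 (0.98) and Rab1a (0.97) for Atp1b1, where the median probe had r = 0.66. For Atp1b2 they were Hsbp1 (0.95), Clip2 (0.93) and Dnase2 (0.92), with a median of 0.64. For Atp1b3 they were Pdia3 (0.94), Spon1 (0.91) and Psmc5 (0.90), with a median of 0.60. On percentiles Scg5 (0.94), Pfn2 (0.89) and Dync1i2 (0.87) led for Atp1b1, Clip2 (0.92), Sord (0.90) and Ap2b1 (0.89) for Atp1b2, and Pdia3 (0.88), Spon1 (0.79) and Ltbp2 (0.78) for Atp1b3.

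Among the FXYD regulators of the pump, 4 of which were tested, Fxyd5, which encodes dysadherin, was called higher at 3 months (1.05, SE 0.22, limma adjusted p = 0.000872) and stayed so after quantile normalization (adjusted p = 0.00256). Fxyd6 was called at 0.79 and was at 0.29, not called, after quantile normalization. Fxyd2 (-0.29) and Fxyd3 (-0.23) were not called. Atp1b4, a relative of the beta subunits that in mammals has lost the pump role, was called at 0.82 from a dim probe and at 1.88 after quantile normalization. Another Atp1b4 probe, too dim to be tested, went the other way, from a mean log2 level of -0.447 in 3M Control to -0.998 in 3M STZ.

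Over the listed genes of sodium, potassium and related transport, FXYD genes and Atp1b4 included, 38 of 66 had a probe and 32 were tested. At 1 month limma called 0 of the 32, and 0 had an unadjusted p under 0.05. At 3 months 17 were called higher and 2 lower, against 50.5% higher and 3.55% lower of all tested probes, and after quantile normalization 8 were higher and 3 lower, against 24.6% and 6.92%. The largest differences in their groups included the calcium pump Atp2a1 (1.04), the sodium-calcium exchanger Slc8a2 (0.95, with another probe at 0.09 not called), the glial glutamate transporter Slc1a3 (0.88) and the potassium-chloride cotransporter Slc12a5 (0.83). After quantile normalization Atp2a1 (0.68) and Slc8a2 (1.22, with the other probe at 0.54) were called. Slc1a3 (0.18, limma adjusted p = 0.338) and Slc12a5 (0.14, adjusted p = 0.642) were then not called. The glutamate transporter Slc1a2 fell by 0.60 (SE 0.17, limma adjusted p = 0.00573) and was at -0.84 after quantile normalization, again called. Slc12a4, another potassium-chloride cotransporter, fell by 0.43 and was not called without the 3M Control 2 array (-0.29). After quantile normalization Slc12a4 was called at -0.69 (limma adjusted p = 0.0162). Agrn, a proteoglycan that binds the pump, was called at 0.68 and was at 0.04, not called, after quantile normalization. The glial potassium channels Kcnj10 (-0.01) and Kcnj2 (-0.13) were not called, nor was Atp4b, the beta subunit of the gastric proton pump (0.26).

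**Figure D4:**
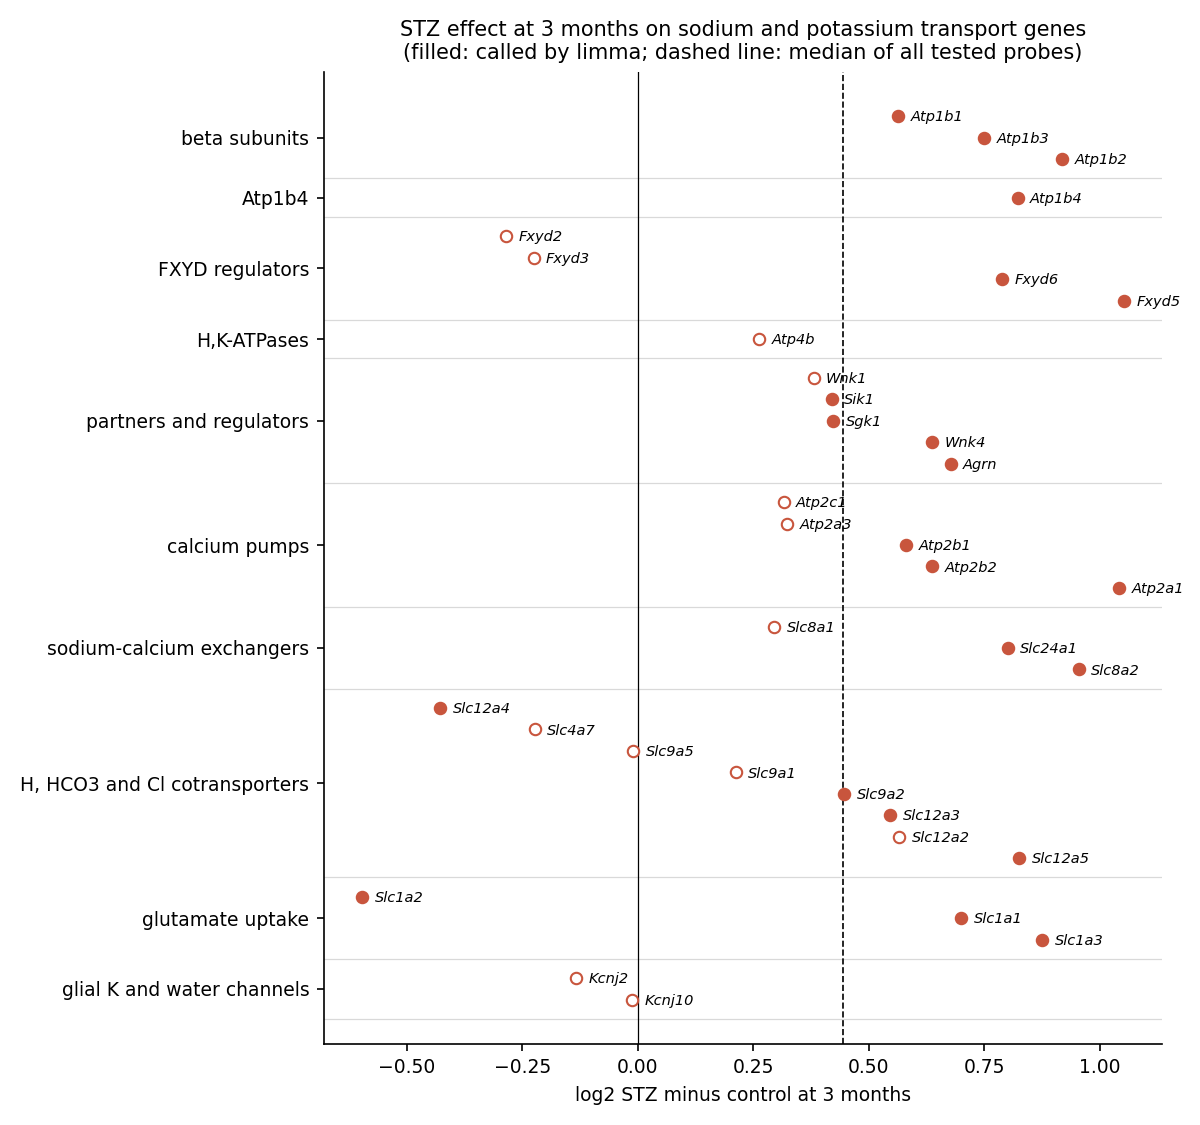
The 3 month log2 difference between STZ and control after median scaling (horizontal axis) for the beta subunits and the other tested transport genes, by group of genes, 1 point a gene. Filled points were called by limma, the dashed line is the median of all tested probes at 0.44, and all 3 beta subunits lie to its right, a position that after quantile normalization Atp1b1 at -0.20 does not keep.

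Markers of other cells and of glial reaction moved with the beta subunits at 3 months. The summed level of the 2 tested reactive glia genes, Gfap and Vim, was 11.9 to 32.9 in 3M Control and 48.2 to 72.1 in 3M STZ, with no overlap, and both were called (1.29 and 1.53). The summed level of the 2 tested lens genes, Cryba2 and Lim2, was 58.6 to 109 in 3M Control and 135 to 208 in 3M STZ, again with no overlap, where Cryba2 was called (1.04) and Lim2 was not (0.43). That of 4 rod genes was 153 to 342 against 285 to 426, and that of 4 Müller glia genes 37.8 to 106 against 81.9 to 117. At 3 months 50.5% of tested probes were called higher, and 9.49% had all STZ arrays above all controls. After quantile normalization Gfap (0.90) and Vim (0.73) were called, while Cryba2 (0.09, limma adjusted p = 0.870) and Lim2 (0.04) were not. The part of these markers in the Atp1b1, Atp1b2 and Atp1b3 differences was not tested.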

How the data were processed

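Per the labels and the methods, rat retinal RNA was hybridised to 24 CodeLink whole genome arrays. The authors used CodeLink Expression Analysis Software 4.1 to exclude defective spots, subtract background and normalize each array. The deposited columns hold the background-subtracted intensity and a normalized signal for 33911 probes, and the series table held 0 values that differed from those of the arrays. No depth exists for arrays, and their number limits the precision.

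The deposited intensity was divided by the median of the 33849 rat probes (62 bacterial probes left out), set to at least 0.01 and taken as log2. Of 5469 probes with a RefSeq accession, 4674 matched a gene of GRCr8. Probe sequences were not used here, and cross-hybridisation, as with an Atp1b3 pseudogene that RefSeq lists, was not tested. Testing was limited to probes whose median scaled intensity over arrays was above 0.554, the 35th percentile. All 24 arrays entered 1 limma 3.58.1 model (R 4.3.3), with contrasts for STZ at each time point and their difference. The script was tested on simulated data. Percentiles and ratios were compared with exact permutation tests (scipy 1.17.1). Alternatives covered normalization, filters, covariates, array weights, tests and leaving out each array.

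A further list of genes is not reported here. The genes and lists were chosen with earlier results of these data known. All tested FXYD genes were to be named, with the largest rise and fall of each other list and the 3 probes most like each beta subunit. Genes of the other lists were represented by their brightest probe. Vim, Gfap, Cryba2 and Lim2 were named from marker lists. The study's own criteria were an unequal-variance test at an unadjusted p under 0.01 and a 1.2-fold change, called the methods' test. The study lists 1 control animal fewer at 1 month than there are arrays, and all arrays were used.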

Additional observations from a re-analysis of the deposited data

Results flagged for a closer look

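The 1M Control 5 array was the lowest of its group for Atp1b1, at 5.10 on the log2 scale, by a gap that exceeded Dixon's limit for 6 arrays. Such a gap arises by chance in about 1 group of 20. The effect of STZ differed between 3 months and 1 month for Atp1b2, by 0.97, and for Atp1b3, by 1.08, in the limma test of the difference itself.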

How the results depend on the processing

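Atp1b2 at 3 months kept its direction under every alternative run, and lost its call only with the methods' test after Benjamini-Hochberg adjustment (0.92, adjusted p = 0.0538), with no scaling between arrays (0.30) and with array spread as a covariate (0.39). Quantile normalization (over all arrays, or within each time point), no scaling, covariates for array spread or brightness, and within-array percentiles changed most other calls. The treatment with no scaling and the ratios of genes were chosen after seeing the data. The causes of these changes were not tested.

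Atp1b1 at 1 month changed sign with the quantile normalizations (-0.044 and -0.036), no scaling (-0.18), array weights (-0.00081) and percentiles (-0.017 points). Atp1b1 at 3 months kept 0.56 but lost its call with the methods' test, the same after adjustment, and separate models of the time points. It was 0.50 after subtraction of the 5th percentile and 0.40 with brightness as a covariate, neither called, and turned to -0.20 and -0.20 with the quantile normalizations, -0.053 with no scaling, -0.042 with spread and -0.16 points as percentiles. Its excess at 3 months turned to -0.15, -0.16, -0.16 and -0.15 with the quantile normalizations, spread and percentiles.

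The Atp1b2 excess was not called at 0.69, 0.64, 0.64 (no scaling), 0.85 (brightness), 0.43 (spread) and 10.6 points. Atp1b3 at 3 months was not called at 0.75 with the methods' test, with or without adjustment, nor at 0.17, 0.17, 0.13 (no scaling), 0.52 (brightness), 0.20 (spread) and 1.01 points. Its excess was not called at 0.53, 0.53, 0.75, 0.95, 0.52 and 3.14 points, in the same order. The 3 month ratios passed the exact test after quantile normalization (0.83, 0.37 and -0.46), and that of Atp1b2 to Atp1b1 also after subtraction of the 5th percentile (0.53).

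Of all tested probes, 2 were called at 1 month, 11911 at 3 months and 3414 for the difference. The 1 month count was 0, 1 or 4 under most alternatives, 262 with the methods' test and 360 with array weights. The 3 month count was 3722 with the methods' test, 1921 after its adjustment, 6948 and 5536 with the quantile normalizations, 970 with no scaling, 4058 with brightness, 0 with spread and 6753 on percentiles. That of the difference was 866 with quantile normalization within time points, 2 with no scaling, 1228 with brightness, 0 with spread and 10325 with array weights. Of the other transport genes 8 were called higher at 3 months after quantile normalization, and 1 lower without the 3M Control 2 array.

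Leaving out each array in turn gave 0.03 to 0.16, -0.16 to 0.080 and -0.41 to -0.20 at 1 month for Atp1b1, Atp1b2 and Atp1b3, with the sign of Atp1b2 turned to 0.080 only without 1M Control 5. At 3 months the ranges were 0.30 to 0.72, 0.76 to 1.05 and 0.54 to 0.86. Atp1b1 was called in 19 of 24 fits, and not without 3M Control 2 or 3 or without 3M STZ 2, 3 or 5. Atp1b2 and Atp1b3 were called in 24 of 24. The excess ranged over 0.20 to 0.61, 0.81 to 1.11 (called in 16, not without 1M Control 5, 1M STZ 1, 3M Control 1, 2 or 3, or 3M STZ 2, 5 or 6) and 0.87 to 1.19 (called in 21, not without 3M Control 3 or 3M STZ 5 or 6). Percentile differences ranged over -0.063 to 0.012, -2.21 to 1.37 and -2.67 to -1.16 points at 1 month and -0.25 to -0.061, 6.29 to 11.6 and 0.34 to 1.37 at 3 months. The sign at 1 month turned for Atp1b2 to 0.043, 1.37 and 0.44 without 1M Control 2, 1M Control 5 and 1M STZ 1, and for Atp1b1 to 0.012 without 1M Control 4. The exact p for Atp1b2 at 3 months was 0.0584, 0.0541 and 0.0584 without 3M STZ 2, 5 and 6. That for Atp1b3 at 1 month was 0.0130 without 1M STZ 5, and that for Atp1b1 at 3 months 0.0498 without 3M Control 2. The ratio of Atp1b2 to Atp1b1 ranged over -0.29 to 0.050 at 1 month, above 0 only without 1M Control 5, and 0.23 to 0.46 at 3 months, with an exact p of 0.0498 without 3M Control 2. That of Atp1b3 to Atp1b1 ranged over -0.53 to -0.25 and 0.14 to 0.25, and that of Atp1b3 to Atp1b2 over -0.40 to -0.13 and -0.26 to -0.095. Counts of called probes ranged over 1 to 5, 8734 to 14055 and 759 to 9230.

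Array numbers were not used as pairs in the main model. Deviations of same-numbered arrays correlated at -0.18 to 0.25 at 1 month and -0.24 to 0.22 at 3 months. These values were not set against those of differently numbered arrays, so they cannot decide whether the numbers pair the samples. The replicate block changed no call of a beta subunit gene, with 0.56, 0.92 and 0.75 at 3 months and adjusted p of 0.0411, 0.00190 and 0.0108. Other probes of each gene could not be tried, since each gene has 1 probe.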
